A study of Mus musculus with 8 samples.

Results

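The dentate gyrus is the entry gate of the hippocampal circuit, and its principal cell is the granule neuron, which receives input from the entorhinal cortex and sends mossy fibres to the hilus and to CA3. Granule neurons are born over an unusually long period that runs past birth, and new ones are still added in adult rodents. The genes described here were chosen as 8 genes known for their expression in this cell type, and their rows were found by symbol among the 20802 genes of the table. Prox1 is a homeobox transcription factor required for granule neuron identity, C1ql2 is a secreted protein of mossy fibre synapses, Dsp encodes the desmosomal plaque protein desmoplakin, Calb1 the calcium buffer calbindin, Tdo2 a tryptophan dioxygenase of the kynurenine pathway, Trpc6 a cation channel, Stxbp6 the SNARE-binding protein amisyn, and Pdzd2 a protein with several PDZ domains. They are not exclusive to granule neurons. Prox1 is also found in some interneurons, and Calb1 in CA1 pyramidal neurons and interneurons.

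Hippocampal RNA of 8 male C57BL/6 mice was sequenced at PND28, with 4 mice in each group. The Anesthesia group had received ketamine at 35 mg per kg daily by the intraperitoneal route over PND16 to PND20, which makes 5 doses. Control mice were given saline on those days, while their sample titles read untreated. Values are counts that the authors normalized with DESeq2, so that the totals of 18702634 to 19231119 per mouse do not show sequencing depth. The steps between low values gave an estimate of 1.55e+07 to 2.22e+07 reads per mouse. The tissue is whole hippocampus. In such bulk samples, fewer granule neurons and less RNA of a gene per granule neuron cannot be told apart.

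The 8 genes were set beside other hippocampal markers, which describes the tissue and does not test whether the 8 are particular to granule neurons. All 8 genes were well above the minimum mean of 10 normalized counts, and all 8 were among the 18865 genes tested. Markers of the other hippocampal fields and of interneurons were present in the same tissue, with Fibcd1, a CA1 marker, between 1291 and 2412 normalized counts, Grik4, a CA3 marker, between 423.6 and 712, and Gad1, the GABA-synthesizing enzyme of interneurons, between 4027 and 5160. The level of choroid plexus genes, which mark tissue that adheres to a dissected hippocampus, differed widely between mice. The 11 genes of that list summed to between 812.3 and 58832 normalized counts over the Anesthesia mice and between 989.976 and 68527.5 over the Control mice. Ttr, its defining marker, ranged from 144.8 to 61582 over the 8 mice.

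The windows in front of the start sites of Prox1, C1ql2 and Dsp are shown because these 3 genes varied most closely together across the mice. The RefSeq start site of Prox1 used here lies outside the GENCODE gene given with its values. The windows are the 250 bases before a RefSeq start site on GRCm38.p6, and capitals mark a match to 1 of 6 searched motifs. RefSeq gave such windows for 7 of the 8 genes, with 2 start sites for Prox1, and none for Calb1.
Prox1, chr1:190170828-190171077, minus strand: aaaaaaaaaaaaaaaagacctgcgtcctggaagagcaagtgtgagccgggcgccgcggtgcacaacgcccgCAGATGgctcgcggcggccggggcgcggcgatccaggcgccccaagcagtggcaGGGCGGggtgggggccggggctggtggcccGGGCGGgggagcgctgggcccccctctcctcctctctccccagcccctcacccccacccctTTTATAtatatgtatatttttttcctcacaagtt
C1ql2, chr1:120340332-120340581, plus strand: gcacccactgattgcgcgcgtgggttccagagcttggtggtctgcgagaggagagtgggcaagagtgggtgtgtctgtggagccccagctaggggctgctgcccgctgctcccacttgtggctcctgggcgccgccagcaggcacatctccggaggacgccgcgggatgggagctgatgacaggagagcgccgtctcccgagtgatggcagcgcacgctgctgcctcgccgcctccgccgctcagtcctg
Dsp, chr13:38151044-38151293, plus strand: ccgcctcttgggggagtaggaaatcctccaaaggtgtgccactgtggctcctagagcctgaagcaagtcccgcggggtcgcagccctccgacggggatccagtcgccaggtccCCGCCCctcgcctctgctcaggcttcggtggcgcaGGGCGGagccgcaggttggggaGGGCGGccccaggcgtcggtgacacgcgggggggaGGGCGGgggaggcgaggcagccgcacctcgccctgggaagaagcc
The motifs were searched on both strands as CAGATG (an E-box of the kind bound by NeuroD factors), TGACGTCA (the cAMP response element), TGANTCA (AP-1), TATAAA (known as the TATA box), TATTTATA (the core of a MEF2 site) and GGGCGG (GC box), and no marked matches overlapped. The printed Prox1 window held an E-box at -179, GC boxes at -125 and -95 and a TATA box on the reverse strand at -34, the Dsp window held 4 GC boxes, and the C1ql2 window held 0 matches. Of the 32851 windows of the same length, 14.4% held the E-box, 12.4% the TATA box, 32.7% the GC box, 1.55% the cAMP response element, 6.75% the AP-1 site and 1.56% the MEF2 core. The share of G and C was 64.8% in the printed Prox1 window, 68.8% for C1ql2 and 72.4% for Dsp, against a median of 52.4% over all windows. The other Prox1 window, inside the GENCODE gene and not printed, had 56.0% and its match was a GC box at -58. A match describes letters only, and no binding was measured here.

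Prox1 (ENSMUSG00000010175, chromosome 1, 190118035 to 190170714 on GRCm38) is the best known identity factor of granule neurons. It had 1492, 2397, 956.6 and 1675 normalized counts in Anesthesia replicates 1 to 4 and 2205, 1455, 1566 and 1141 in Control replicates 1 to 4. Anesthesia replicate 2 and Control replicate 1 were high, Anesthesia replicate 3 and Control replicate 4 were low, and the groups overlapped. Mean ± SD (n = 4) was 1630 ± 595.1 with anesthesia and 1592 ± 446.9 without, so the spread between mice of a group was far larger than the difference between the groups. The log2 fold change was -0.000165 (standard error 0.26, 95% interval -0.57 to 0.57, adjusted p = 1 from limma). Prox1os, an antisense gene with a mean of 28.2 normalized counts, shares 133 exonic bases with Prox1, and how the quantification treated strand is not given in the sources used here.

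C1ql2 (ENSMUSG00000036907, chromosome 1, 120340582 to 120343174), the synaptic gene of the set, followed the same mice. Its values were 411.2, 592.8, 251.1 and 424.2 normalized counts in Anesthesia replicates 1 to 4 and 599, 321.5, 420.9 and 240.9 in Control replicates 1 to 4. The mice high and low for Prox1 were again high and low, and the groups overlapped. Its log2 fold change was 0.10 (standard error 0.29, 95% interval -0.55 to 0.75, adjusted p = 0.937 from limma).

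Dsp (ENSMUSG00000054889, chromosome 13, 38151294 to 38198577) encodes a protein best known from the junctions of epithelia and heart muscle. It varied most of the 8 genes, by 3.44-fold between the lowest and the highest mouse. Values were 1100, 2453, 712.6 and 1168 normalized counts in Anesthesia replicates 1 to 4 and 1928, 1218, 1295 and 877.4 in Control replicates 1 to 4. Anesthesia replicate 2 stood highest and Anesthesia replicate 3 lowest of all mice, so that the whole range of the 8 mice was held by the Anesthesia group. For Dsp the log2 fold change was -0.062 (standard error 0.33, 95% interval -0.80 to 0.68, adjusted p = 0.968 from limma). Gm10129, on the opposite strand with a mean of 7.40 normalized counts, shares 499 exonic bases with Dsp.

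Tdo2 (ENSMUSG00000028011, chromosome 3, 81957090 to 81976202), the tryptophan-degrading enzyme, had the largest difference between the groups of the 8 genes. It had 174.1, 286.8, 134.8 and 136.3 normalized counts in Anesthesia replicates 1 to 4 and 190.3, 124.3, 149.7 and 103.5 in Control replicates 1 to 4. The groups overlapped, and Anesthesia replicate 2 was the only mouse above the highest Control mouse. Mean ± SD (n = 4) was 183 ± 71.6 with anesthesia and 142 ± 37.4 without. The log2 fold change was 0.33 (standard error 0.26, 95% interval -0.24 to 0.89, adjusted p = 0.739 from limma). Without Anesthesia replicate 2 the log2 fold change was 0.090. The difference was within the spread between mice.

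Calb1 (ENSMUSG00000028222, chromosome 4, 15881264 to 15908064), which granule neurons take up as they mature, was the steadiest of the 8 genes and followed the others least. It had 2375, 2057, 1704 and 1944 normalized counts in Anesthesia replicates 1 to 4 and 2536, 2392, 2073 and 1673 in Control replicates 1 to 4. Anesthesia replicate 2, the highest mouse of its group for the other 7 genes, was not the highest here. The highest value was 1.52 times the lowest, and the log2 fold change was -0.095 (standard error 0.13, 95% interval -0.39 to 0.20, adjusted p = 0.849 from limma).

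Trpc6 (ENSMUSG00000031997, chromosome 9, 8544142 to 8680741) forms a cation channel that opens downstream of phospholipase C. It had 752.6, 950.8, 563.2 and 698.6 normalized counts in Anesthesia replicates 1 to 4 and 1030, 831.3, 723.3 and 592 in Control replicates 1 to 4. Control replicate 1 and Anesthesia replicate 2 were again the highest mice. The log2 fold change was -0.095 (standard error 0.18, 95% interval -0.50 to 0.31, adjusted p = 0.896 from limma).

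Stxbp6 (ENSMUSG00000046314, chromosome 12, 44852484 to 45074709), whose product binds the membrane fusion machinery, had 597.4, 845.2, 631 and 650.4 normalized counts in Anesthesia replicates 1 to 4 and 897.5, 670.1, 711.2 and 525.6 in Control replicates 1 to 4. Anesthesia replicate 1 was the lowest mouse of its group here, in place of replicate 3. Its log2 fold change was -0.029 (standard error 0.16, 95% interval -0.38 to 0.32, adjusted p = 0.967 from limma).

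Pdzd2 (ENSMUSG00000022197, chromosome 15, 12359711 to 12739924), the scaffold protein with PDZ domains, had 1075, 1777, 1431 and 1248 normalized counts in Anesthesia replicates 1 to 4 and 1429, 1167, 1381 and 948 in Control replicates 1 to 4. Anesthesia replicate 3, low for Prox1, C1ql2 and Dsp, was the second highest of its group for this gene. The log2 fold change was 0.16 (standard error 0.16, 95% interval -0.20 to 0.52, adjusted p = 0.792 from limma). The plot of each gene by mouse shows that the values of the groups overlapped for every one of the 8 genes.

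**Figure D1:**
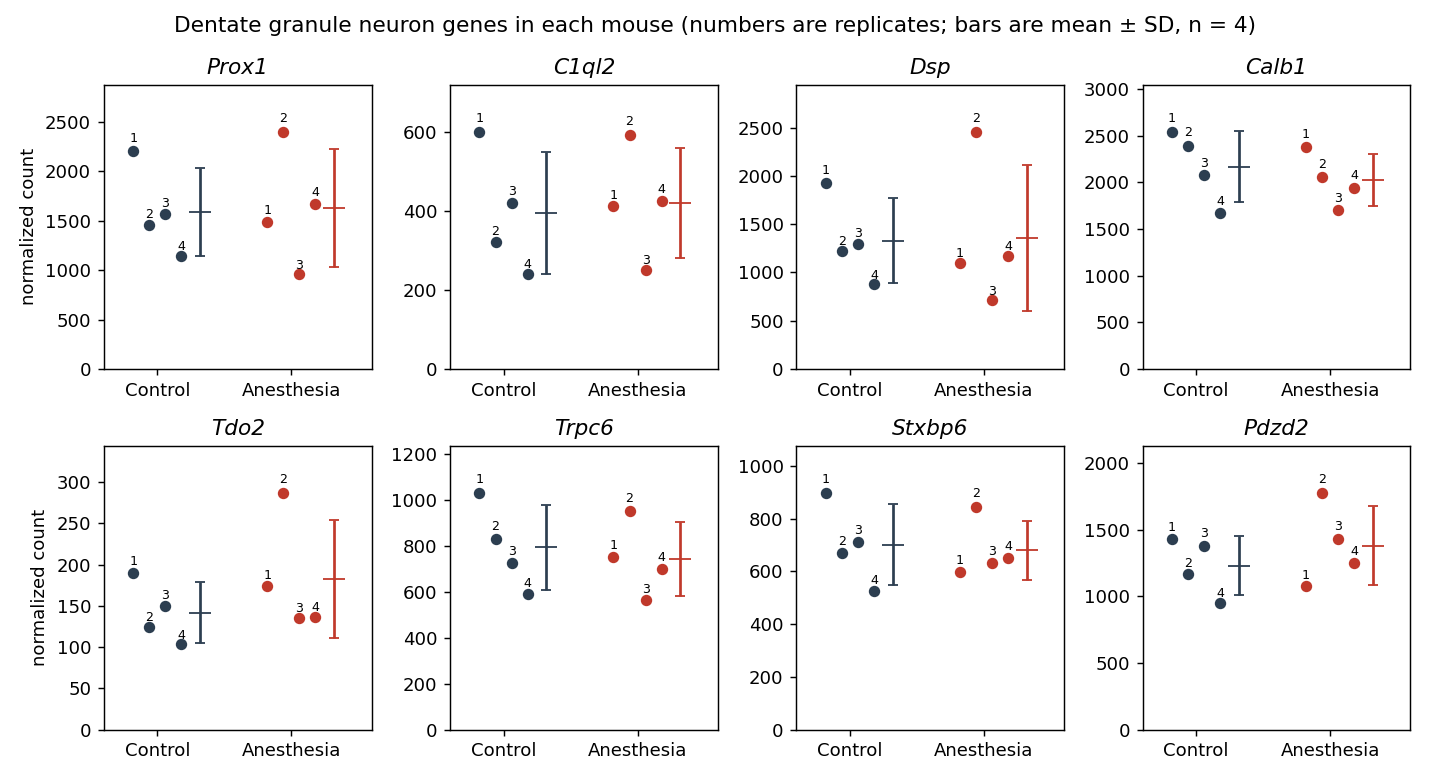
Normalized counts (y axes, starting at 0) of the 8 genes in the 4 Control and 4 Anesthesia mice, where each point is a mouse with its replicate number and the bars give mean ± SD (n = 4). The groups overlapped for all 8 genes, with Control replicate 1 highest and Control replicate 4 lowest of its group in each panel, and Anesthesia replicate 2 highest of its group in all but Calb1.

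Levels of different genes were compared per kb of merged exons. On this scale the mean over the 8 mice was 432.1 normalized counts per kb for Calb1, 203.8 for C1ql2, 192 for Prox1, 151.5 for Trpc6, 139.1 for Dsp, 130.5 for Stxbp6, 71 for Pdzd2 and 41.9 for Tdo2. With these lengths Calb1 was above C1ql2, Prox1 above Trpc6, Stxbp6 above Pdzd2 and Pdzd2 above Tdo2 in 8 of 8 mice. The neighbours in between did not differ beyond their spread. C1ql2 was above Prox1 in 6 of 8 mice, with a mean log2 difference of 0.071 ± 0.14 (SD, n = 8), Trpc6 above Dsp in 7 of 8 (0.20 ± 0.31), and Dsp above Stxbp6 in 3 of 8 (0.009 ± 0.38). All mice share the length of a gene, so the counts of mice do not cover the choice of length. The merged exons have 5066 bases for Trpc6 and 18419 for Pdzd2, but their longest transcripts 3259 and 10756. For Prox1 these lengths are 8390 and 7913, so the order can differ with another length.

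To ask whether repeated ketamine anesthesia was followed by a different level of these genes, limma was fitted on log2(value + 1) to the 18865 genes whose mean reached 10. None of the 8 genes passed the test between the groups. The number with an adjusted p under 0.05 was 0 of 8, where 0% of all genes tested passed, and at an unadjusted p under 0.05 it was also 0 of 8, against 8.02% of all genes tested (4.75% higher and 3.27% lower in the Anesthesia group). The paper, which tested read counts with DESeq2, did report genes at an adjusted p under 0.05, most of them upregulated. In 0 of the 8 did the values of the groups stand apart without overlap, against 5.04% of all genes tested (2.81% higher and 2.23% lower). Of the 8 genes, 3 had a positive and 5 a negative log2 fold change, with a median of -0.015 beside -0.0036 over all genes tested. The 95% intervals reached from -0.80 to 0.89 on the log2 scale over the 8 genes, so that a moderate change in either direction was not detectable with 4 mice in a group. The direction of 5 of the 8 genes depended on single mice. Without Anesthesia replicate 3 the log2 fold change of Prox1 was 0.23 and that of Dsp 0.20, while without Anesthesia replicate 2 it was -0.21 for Prox1 and -0.40 for Dsp. Without Control replicate 1 it was 0.33 for C1ql2, 0.040 for Trpc6 and 0.098 for Stxbp6, and without Control replicate 4 it was -0.11, -0.23 and -0.16 for these genes.

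The variation of the 8 genes lay between mice of the same group. Their SD within groups on the log2 scale had a median of 0.38, beside 0.19 over all genes tested, and Dsp, with 0.62, stood above 93.3% of all genes tested. Anesthesia replicate 2 was the highest mouse of its group for 7 of the 8 genes and Anesthesia replicate 3 the lowest for 6. In the Control group, replicate 1 was the highest and replicate 4 the lowest mouse for all 8. The mean of the 8 genes, centred over the mice on the log2 scale, was -0.030, 0.52, -0.37 and -0.044 in Anesthesia replicates 1 to 4 and 0.42, -0.066, 0.030 and -0.46 in Control replicates 1 to 4. High and low mice thus occurred in both groups, and the group means of 0.019 and -0.019 lay well within the SD of 0.37 and 0.36.

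Across the 8 mice the genes moved together. The 28 pairs had a median Pearson r of 0.81 (0.127 to 0.974) and a median Spearman rho of 0.702 (0.0714 to 0.952), and in 18 of the 28 the exact permutation p of r was under 0.05 (two-sided). With Benjamini-Hochberg adjustment over the 28 pairs it was under 0.05 in 17 for r and in 9 for rho. Without the 2 mice farthest from the median of 1 gene of the pair, the 28 r had a median of 0.794 and a lowest value of -0.531. Among the 17 pairs, Tdo2 with Pdzd2 changed most, from 0.774 to 0.082 without Anesthesia replicate 2 and Control replicate 4. The closest pair was Prox1 and Dsp, with r = 0.974 (exact permutation p = 0.000546, adjusted p = 0.0153) and rho = 0.881 (exact permutation p = 0.00724, adjusted p = 0.0478), and r was 0.952 without Anesthesia replicates 2 and 3, the mice farthest from the median of Prox1. Prox1 and C1ql2 had r = 0.962 (exact permutation p = 0.00109, adjusted p = 0.0153) and rho = 0.952 (exact permutation p = 0.00114, adjusted p = 0.0319), and r was 0.965 without the same mice. After the group means were subtracted, the median over the 28 pairs was 0.857, so the shared variation was among mice of the same treatment. All genes of a mouse come from 1 library. The mean r over all pairs of genes tested was 5.79e-05, but positive and negative r cancel in such a mean. With the mean of the 8 genes, 2.78% of the other genes tested had an r of at least 0.8 and 1.46% an r of -0.8 or lower. Whether a difference between whole libraries had a part in the shared variation was not tested.

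Over all mice, Calb1 and Pdzd2 stood apart from this pattern. Their r with the mean of the other 7 genes was 0.603 for Calb1 and 0.65 for Pdzd2. For the other 6 it was 0.847 to 0.951. For Pdzd2 this depended in part on single mice. Its r rose from 0.554 to 0.869 with Prox1 and from 0.628 to 0.878 with Dsp without Anesthesia replicates 2 and 3. It rose from 0.618 to 0.777 with C1ql2 and from 0.487 to 0.787 with Trpc6 without Anesthesia replicate 3 and Control replicate 4 or 1. It fell from 0.774 to 0.082 with Tdo2 and from 0.827 to 0.801 with Stxbp6 without Anesthesia replicate 2 and Control replicate 4 or 1. Calb1 and Pdzd2 themselves had the lowest r of all pairs, 0.127 (exact permutation p = 0.76, adjusted p = 0.76) with rho = 0.0714 (exact permutation p = 0.882, adjusted p = 0.882), and r was -0.531 without Control replicates 1 and 4. Calb1 and Trpc6 had r = 0.824 (exact permutation p = 0.0133, adjusted p = 0.0279) and rho = 0.833 (exact permutation p = 0.0154, adjusted p = 0.0478), and r was 0.66 without the same 2 mice. The relation of Calb1 to C1ql2, with r = 0.658 (exact permutation p = 0.0793, adjusted p = 0.117) and rho = 0.548 (exact permutation p = 0.171, adjusted p = 0.218), rested on Anesthesia replicate 3 and Control replicate 4, since r was -0.0139 without them.

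**Figure D2:**
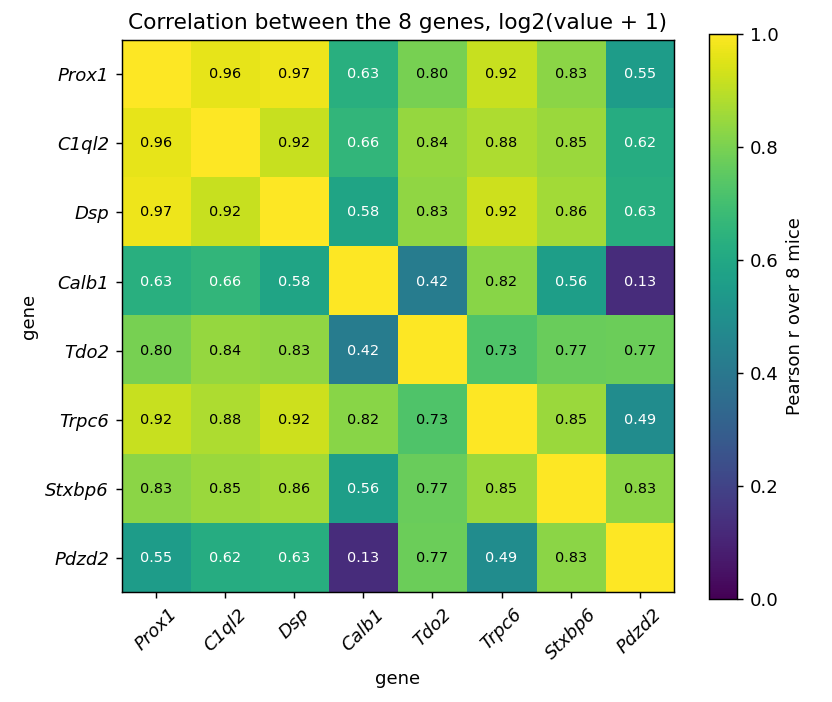
Pearson r (colour and number) over the 8 mice between each pair of the 8 genes, on log2(value + 1). Prox1, C1ql2, Dsp and Trpc6 form a block of high values, from 0.875 to 0.974, and Calb1 with Pdzd2 is lowest at 0.127.

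A further 16 genes known from granule neurons were compared with the 8. These included Plk5, a polo-like kinase gene, the transcription factor genes Rfx3, Glis3 and Bcl11b, the guidance molecule Sema5a, C1ql3, a relative of C1ql2, the synaptic adhesion gene Lrrtm4, the opioid precursor Pdyn, the lactase gene Lct, the cytokine precursor Il16, and Dock10, Akap7, Ablim3, Tiam1 and Maml2. Single genes of this list that are given with a value below were picked once their values had been seen. Over the 8 mice their r with the mean of the 8 genes had a median of 0.823, from 0.582 for Dock10 to 0.968 for Rfx3, beside a median of -0.005 over the 18857 other genes tested, and 11 of the 16 had an r of at least 0.8, as did 2.78% of those genes. Anesthesia replicate 2 was the highest mouse of its group for 15 of the 16 and Control replicate 1 for 14, and the means of both lists had an r of 0.978 and a rho of 0.952 over the 8 mice. None of the 16 passed the test between the groups. In limma 0 of the 16 passed at an adjusted p of 0.05, 0 were under 0.05 before adjustment, and in 0 did the groups not overlap. Their log2 fold changes had a median of 0.024 and ran from -0.25 for Glis3 to 0.23 for Tiam1 (standard error 0.11, adjusted p = 0.636 from limma). Tiam1, an activator of Rac, followed the 8 genes less closely, with an r of 0.685.

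**Figure D3:**
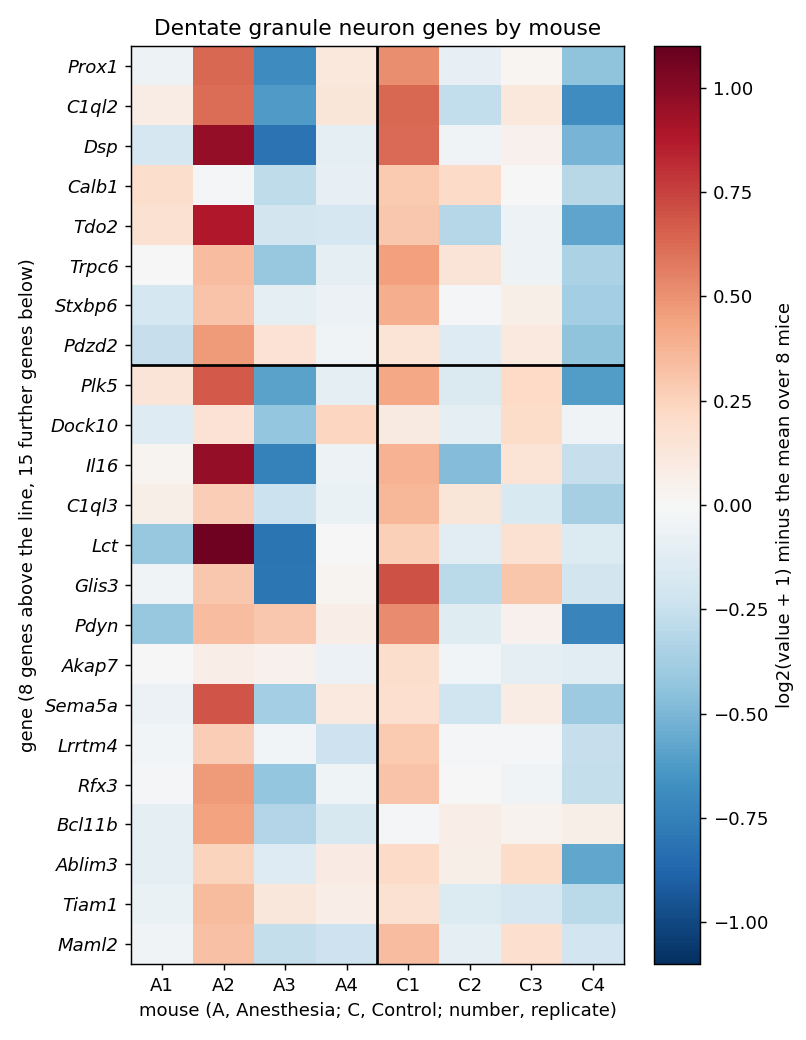
Centred log2(value + 1), coloured from blue (below the gene's mean over 8 mice) to red (above it), for the 8 genes and 15 of the 16 further genes (rows) in the 4 Anesthesia (A) and 4 Control (C) mice (columns). Columns A2 and C1 are mostly red and columns A3 and C4 mostly blue, on both sides of the line between the groups.

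The 5 genes whose profile was most like the mean of the 8, among the 18857 other genes tested, were Bud13 (r = 0.983 over 8 mice), Nck2 (0.98), Mycbp2 (0.976), Gm43188 (0.976) and Il1rap (0.973). Bud13 encodes a splicing factor, Nck2 an adaptor protein of actin signalling, Mycbp2 an E3 ubiquitin ligase of axons and synapses, and Il1rap a subunit of the interleukin receptor family. Without Anesthesia replicate 2 and Control replicate 1, the mice farthest from the median, r was still between 0.902 and 0.951 for these 5 genes. They were chosen for this likeness out of all genes, so their values are a description.

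Lists for other cells of the hippocampus were set beside the mean of the 8 genes. The list for immature granule neurons held Neurod1, Igfbpl1, Sox11, Draxin, Eomes and Dcx. These 6 genes had an r of 0.901 as a mean, while single genes ran from -0.188 to 0.94, with 3 over 0.8. Dcx, the microtubule protein of migrating neurons, was highest in Anesthesia replicate 3, at 1076 normalized counts against 627.1 to 812.1 in the other mice. Means of the other lists had an r of 0.619 for CA2, 0.279 for CA3 and -0.50 for CA1 pyramidal neurons, 0.0883 for mossy cells and -0.653 for interneurons. For choroid plexus it was -0.354, for thalamus -0.548, for oligodendrocytes -0.335 and for endothelium -0.396. These values are given as descriptions over 8 mice, and several turned on the mice highest in the 8 genes. Without Anesthesia replicate 2 and Control replicate 1, r was 0.929 for the 16 further genes and 0.855 for immature granule neurons. For the other lists it was 0.892 for mossy cells, 0.483 for CA2, -0.272 for CA3, -0.66 for CA1, -0.548 for interneurons, 0.286 for choroid plexus, 0.274 for thalamus, 0.244 for oligodendrocytes and -0.858 for endothelium. The mossy cell mean held 5 genes, of which 4 reached the minimum mean of 10. Over the 8 mice these 4 had single r from -0.436 to 0.462 with the mean of the 8 genes. Between the groups, 0 genes of these lists passed at an adjusted p of 0.05 in limma and in 0 did the groups stand apart. At an unadjusted p under 0.05, which 3.27% of all genes tested reached as lower values, 1 gene was lower with anesthesia in each of 4 lists. These were Calb2 of 4 mossy cell genes tested, Amigo2 of 5 CA2 genes, Gad1 of 10 interneuron genes and Tcf7l2 of 9 thalamus genes, and in the other lists there were 0. Amigo2 was named after its value had been seen. The median log2 fold change was 0.12 for immature granule neuron, -0.31 for mossy cell, -0.094 for CA1, -0.076 for CA3, -0.15 for CA2, -0.036 for interneuron, -1.88 for choroid plexus, -0.10 for thalamus, -0.065 for oligodendrocyte and -0.0067 for endothelium genes.

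**Figure D4:**
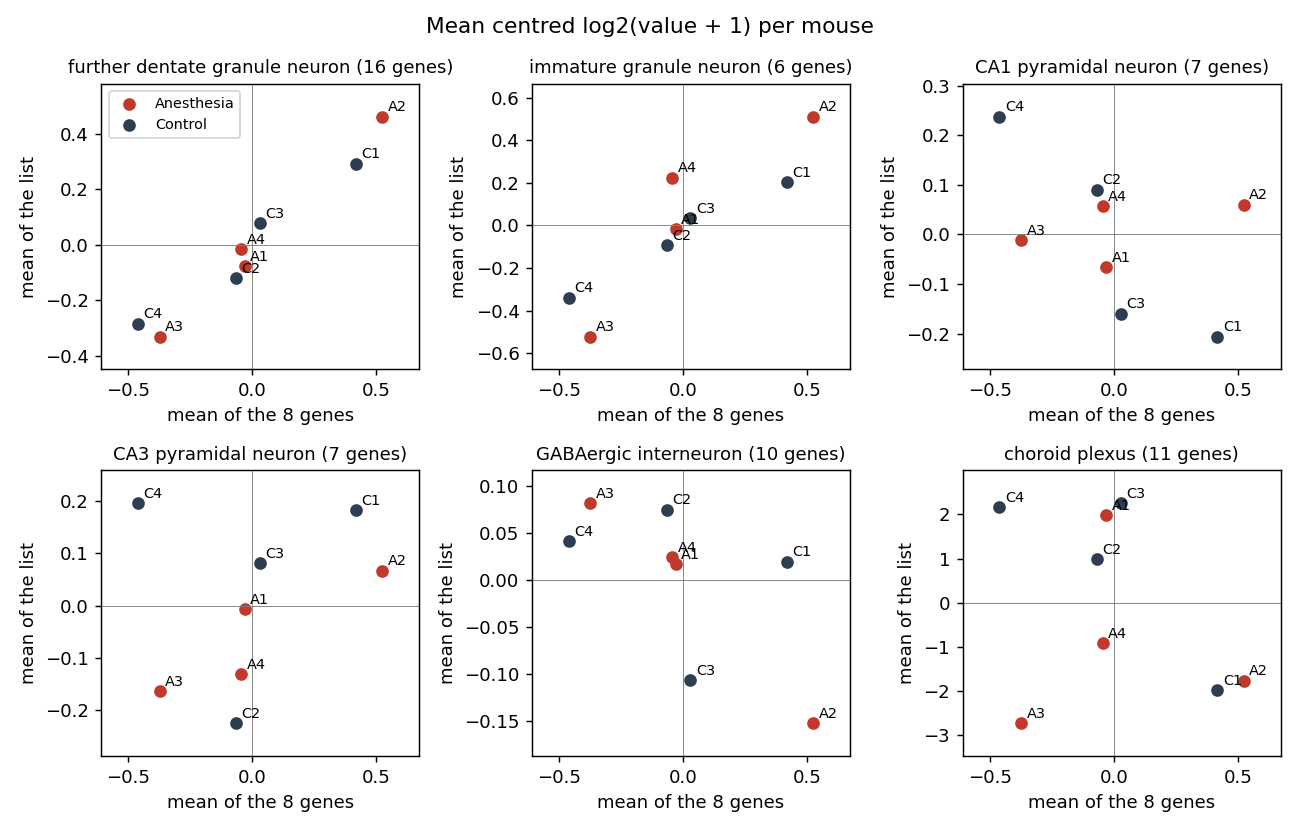
Each panel sets the mean centred log2(value + 1) of a marker list (y axis) against that of the 8 genes (x axis), with 1 point per mouse (A, Anesthesia; C, Control; number, replicate). The further granule neuron genes lie along a line (r = 0.978). Choroid plexus genes are high in C4 and low in A3, the mice lowest in the 8 genes, and low in A2 and C1, the mice highest in them.

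Markers of other tissue were also compared with the level of the 8 genes in single mice. Fibcd1, the CA1 marker, was 1291 in Anesthesia replicate 3, which was low for most of the 8 genes, and 2130 to 2412 in the others, and its part in the results was not tested. Over the choroid plexus list, Anesthesia replicate 3 summed to 812.3 and Control replicate 4 to 68318.5 normalized counts, and the mice highest in the 8 genes, Anesthesia replicate 2 and Control replicate 1, to 1438 and 989.976. In a fit that took the choroid plexus genes as covariate, 0 of the 8 genes had an adjusted p under 0.05 in limma, where 0% of all genes tested passed, and 0 of 8 had an unadjusted p under 0.05, against 4.4% of all genes tested. In that fit Tdo2 alone had a positive log2 fold change, 0.21, and the median of the 8 was -0.10. The values were -0.22 for Dsp, -0.19 for Trpc6, -0.18 for Stxbp6, -0.10 for Prox1, -0.10 for Calb1, -0.018 for C1ql2 and -0.0043 for Pdzd2.

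Since the 16 further genes followed the same mice, their mean was used as a covariate to compare the 8 genes at equal level of other granule neuron genes, an analysis chosen after the data had been seen. The standard error fell from 0.33 to 0.076 for Dsp and from 0.26 to 0.081 for Prox1, while that of Calb1 was 0.13 before and 0.12 after. At this precision the log2 fold change of Prox1 was -0.029 (95% interval -0.21 to 0.15) and that of Dsp -0.099 (95% interval -0.27 to 0.069). For Tdo2 the log2 fold change was 0.30 (standard error 0.13, 95% interval 0.022 to 0.58), with an unadjusted p of 0.0369 and an adjusted p of 0.47 from limma, so it did not pass the threshold. It was the only one of the 8 genes with an unadjusted p under 0.05 in that fit, where 10.1% of all genes tested had one, and 0 genes of the 18865 had an adjusted p under 0.05.

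**Figure D5:**
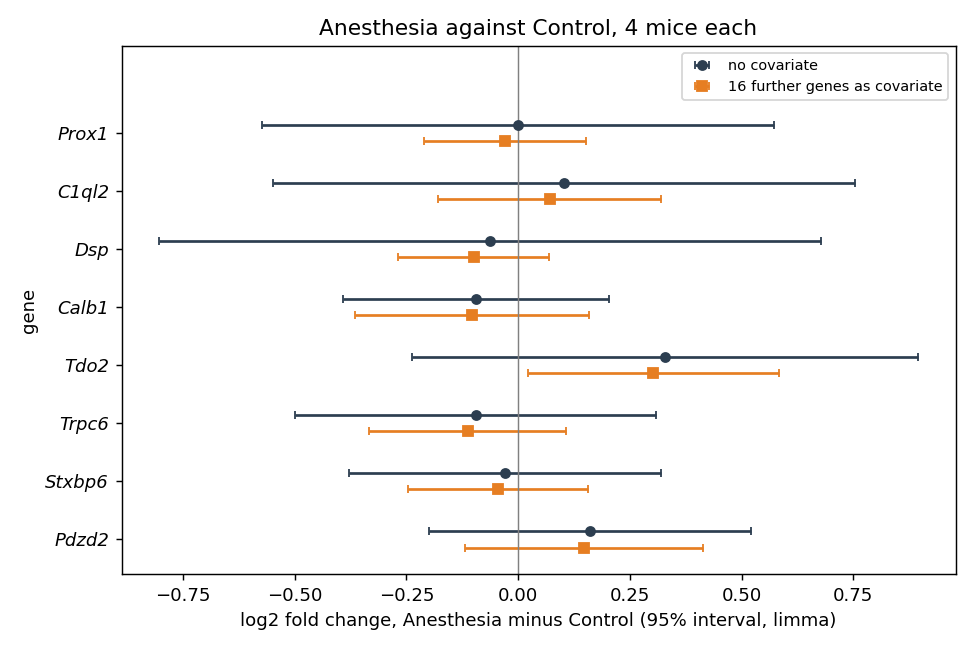
Log2 fold change (x axis, Anesthesia minus Control) of the 8 genes with 95% intervals from limma, without a covariate (circles) and with the mean of the 16 further genes as a covariate (squares). All intervals without the covariate include 0, and with it the intervals are narrower and that of Tdo2 runs from 0.022 to 0.58.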

How the data were processed

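Hippocampal RNA-seq values of 8 mice were analysed, with 1 column per mouse matched by its group letter and number. The authors quantified transcripts against GRCm38 with Salmon 1.1.0, GC bias corrected, imported gene sums through tximport and scaled them with DESeq2 1.30.1. The deposited signal is thus a normalized count that need not be whole. Between 51.6% and 73.4% of low values per mouse came within 0.1 of whole reads. No count model was used, and limma 3.58.1 was fitted in R 4.3.3. It modelled log2(value + 1) without covariates, allowing a mean-variance trend, over 18865 genes whose mean reached 10, leaving out 1937, with Benjamini-Hochberg adjustment and a threshold of 0.05. Fold changes are on that log2 scale, which understates the change of low genes. Replicates are the samples the labels list per group. Symbols, positions and exons came from GENCODE M21, which held 20784 of the identifiers, and start site windows from RefSeq. Exact permutation tests enumerated all pairings of the 8 mice in Python 3.11.15.

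The 8 genes and the lists were chosen with earlier results of these data known. Genes named by rule are the 8, those of the 16 further genes with an unadjusted p under 0.05 or groups that do not overlap, defining markers by level, and the 5 genes most like the mean of the 8. The lists besides these were immature granule neuron, mossy cell, CA1, CA2 and CA3 pyramidal neuron, interneuron, choroid plexus, thalamus, oligodendrocyte and endothelium. Values of some single list genes are not reported here.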

Additional observations from a re-analysis of the deposited data

How the results depend on the processing

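Other pseudocounts, filters, scalings, weights and corrections left 0 of the 8 genes with an adjusted p under 0.05 in all 152 alternative values, the lowest being 0.47. The number of all genes with an adjusted p under 0.05 was 0 in every alternative run except without Control replicate 1, where it was 2, so it ranged from 0 to 2 when single mice were left out. Of the 8 genes, 0 passed in any of these fits. Genes with an unadjusted p under 0.05 numbered 1513, 945 with the GC content and length correction with replicate block, 830 with the choroid plexus covariate and 1061 to 2022 with a mouse left out. Log2 fold changes that changed sign were those of Prox1 with upper quartile scaling (0.010) and of C1ql2 (-0.018) and Pdzd2 (-0.0043) with the choroid plexus covariate. The GC content and length correction kept all 8 signs but moved Pdzd2 to 0.066, C1ql2 to 0.038, Dsp to -0.14, Prox1 to -0.041 and Stxbp6 to -0.010. The cause was not tested. With each mouse left out in turn, Prox1 ran from -0.21 to 0.23, C1ql2 from -0.11 to 0.33, Dsp from -0.40 to 0.20, Trpc6 from -0.23 to 0.040 and Stxbp6 from -0.16 to 0.098, and the median of the 8 from -0.15 to 0.17. Calb1 stayed negative (-0.21 to -0.014), and Tdo2 (0.090 to 0.48) and Pdzd2 (0.032 to 0.27) positive. The median r of the 28 pairs ran from 0.736 to 0.881 over the same fits.

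Deviations from the group means of mice with the same replicate number had correlations of -0.242, -0.109, -0.182 and 0.0194. Mice with different numbers were not compared, so these values cannot show whether the number pairs mice. A replicate block left 0 genes at an adjusted p under 0.05, with 1084 at an unadjusted p under 0.05, and changed no call.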
